A study of Bos taurus with 22 samples.

Results

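The early lactation group comprised 11 of the 22 arrays of the series: every array made from adipose tissue taken 14 days after calving, 1 array for each of 11 Holstein cows. The cows had calved for the first time at 24 to 28 months of age, on 1 diet before and 1 after calving, and carried no other treatment or genotype in the labels. Biopsies were subcutaneous white fat from a dorsal site. Total RNA was measured on Affymetrix bovine arrays, and the other 11 arrays, from the same cows 30 days before calving, were left out of every result below except 1 check of sample identity. The arrays describe how adipose tissue stood early in milk production and how far it differed between them. With 1 array per cow, differences between animals and between arrays are 1 quantity.

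In early lactation a dairy cow draws on stored fat to make milk. Adipocytes then take up and synthesise less fatty acid and release more through lipolysis. Fatty acid synthesis starts from acetate in ruminant fat and runs through ACSS2, ACACA and FASN, after which ELOVL6 lengthens and SCD desaturates the product, and GPAM and DGAT2 build it into triglyceride. PNPLA2 and LIPE remove fatty acids from triglyceride and diglyceride in turn. Leptin, encoded by LEP, is an adipocyte hormone that reports fat stores to the brain. The tissue around the adipocytes holds macrophages, other leukocytes, vessels and collagen-producing fibroblasts.

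Levels are given as log2(signal + 7.76), where the signal is the scaled intensity of a probe set and 7.76 is a pseudocount. A probe set is the group of short probes that reads 1 transcript. The 14410 probe sets with a mean level of at least 5.056 were analysed, and they held 7000 named genes. Bulk tissue was measured, so fewer cells of a type and less RNA per cell cannot be told apart.

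The defining markers of fat were present. All 15 adipocyte markers on the array passed the intensity filter. FABP4, the fatty acid binding protein of adipocytes, ranged from 12.61 through a median of 13.01 to 13.36, and ADIPOQ, which encodes adiponectin, from 9.54 through 10.94 to 11.62. UCP1, the marker of brown fat, was below the filter, as were the milk protein genes CSN1S1, CSN3 and LALBA and the skin keratins KRT14, KRT15 and KRT17. Other members of these lists passed: 4 of 5 brown adipocyte markers on the array, 2 of 8 for mammary epithelium and 2 of 8 for epidermis. The brown adipocyte list shares CIDEA with the adipocyte markers. Median signals of 41.1 to 47.4 and a trimmed mean of 125 on each array showed equal overall scaling. The arrays also differed in the codes that end their titles, which divide them into array set 1 (5 arrays) and array set 2 (6 arrays); what the code marks is not stated.

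3 arrays were high in ACTA1, the actin of skeletal muscle, by the rule of more than 2 log2 units above the median of 5.22, which sets the limit at 7.22. Cow 384 stood at 13.17, cow 386 at 10.73 and cow 382 at 7.55. The nearest array below the limit was cow 341 at 6.86, and the lowest was cow 331 at 4.41. Summed over the 19 skeletal muscle markers on the array, the signal was 125114 in cow 384 and 12790 in cow 386, against 2309 to 3852 in the 8 arrays below the limit. In cow 382 this sum was 3223, inside that range. Cow 384 also stood apart over the whole array: its median rank correlation with the other arrays was 0.777, against 0.92 to 0.936 for the rest. Every count below is therefore given for all 11 arrays and for the 8 arrays that were not high in ACTA1.

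The identity of 1 array was in doubt. Genes with a high and a low level across animals, by a fixed gap rule, numbered 0, so the planned check of labels at such genes could not be made. A check chosen after the data had been seen used a pair of MHC class I probe sets, whose levels differ between animals. BOLA differed between the 2 arrays of a cow by 0.02 to 1.24 in 10 cows, and BOLA-N by 0.14 to 0.87. In cow 387 BOLA was 3.55 before and 12.38 after calving, and BOLA-N 3.2 and 9.81. The arrays labelled cow 387 thus differed at these 2 probe sets, and 1 of them may carry a wrong label, which was not tested further. The postpartum array of that label is kept below as the array labelled cow 387. The calls of the macrophage fit, which turned on it, are given with and without it.

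**Figure D1:**
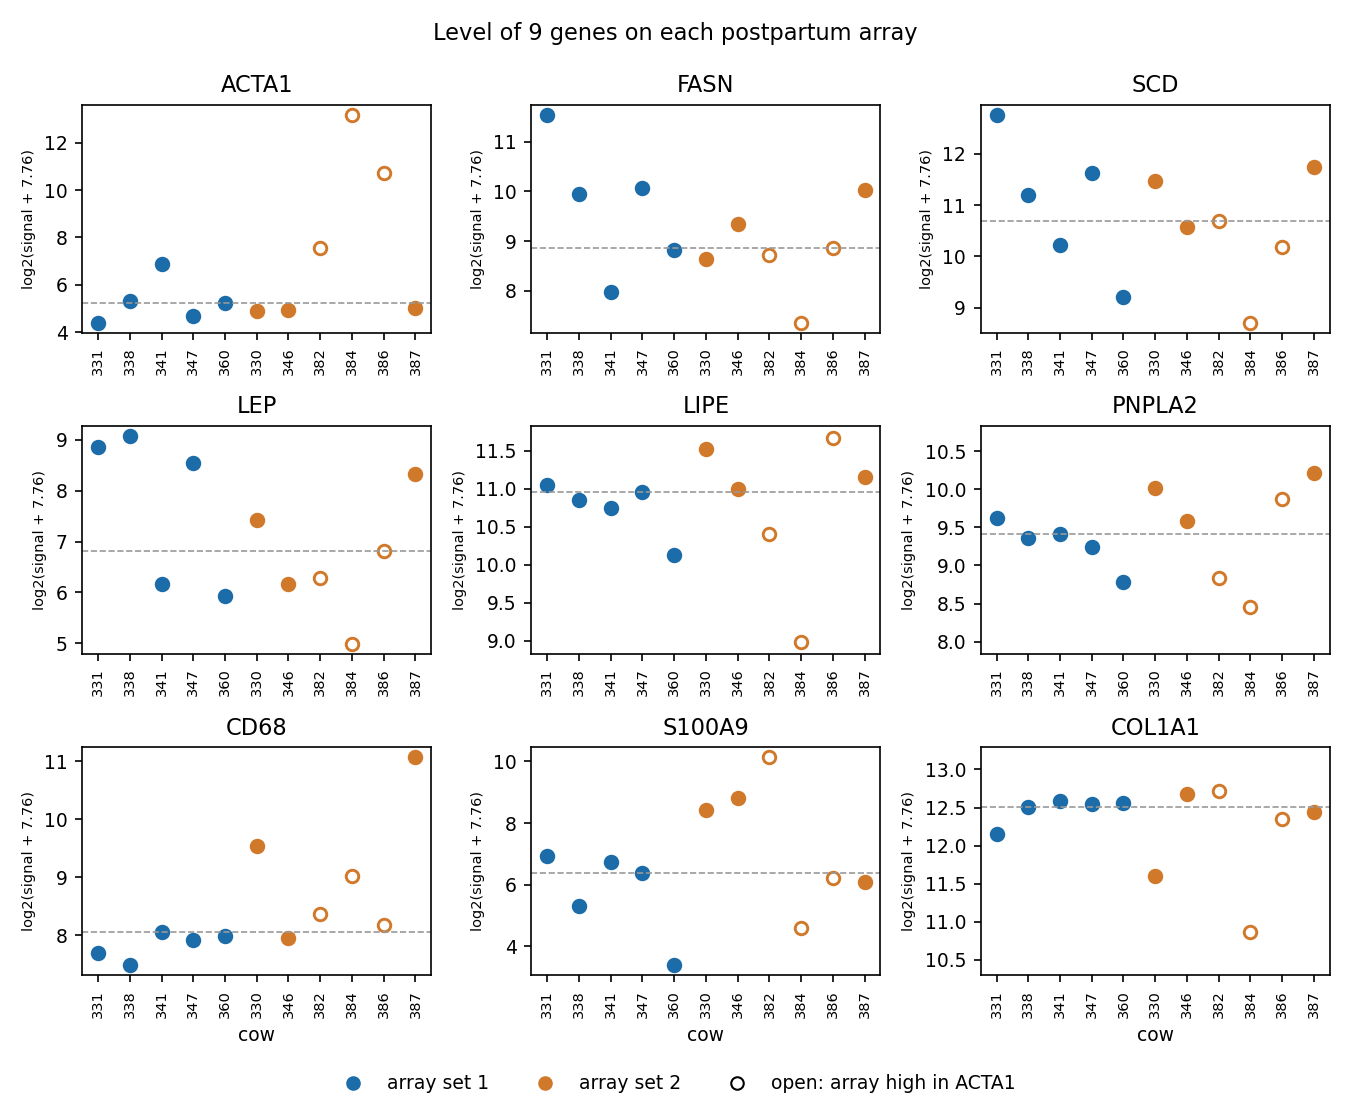
Level of 9 genes on each of the 11 postpartum arrays, as log2(signal + 7.76), with a dashed line at the median; blue points are array set 1, orange points array set 2, and open points are the 3 arrays high in ACTA1. Cow 384 had the highest ACTA1 (13.17) and the lowest FASN, SCD, LEP, LIPE, PNPLA2 and COL1A1, and the array labelled cow 387 the highest CD68 (11.07).

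The brightest signals came from structural, ribosomal and fat-handling genes. TMSB10, an actin-binding peptide, led at 13.09 ± 0.25 (mean ± SD, n = 11), followed by the collagen gene COL3A1 at 13.04 ± 0.30 and FABP4 at 13.03 ± 0.29. DCN, the matrix proteoglycan decorin, stood at 12.83, COL1A2 at 12.74, VIM at 12.73 and CD36, the fatty acid translocase, at 12.59. The translation factor EEF1A1 had 12.97 and the iron store FTH1 12.77. Ribosomal protein genes made up 11 of the 25 brightest genes and 36 of the 60 brightest. Names in this order are those of the probe annotation, and it also held CDK5R1, RPS4Y1 and ITGB5. The order is one of signals, since probe sets differ in response, and sets no gene's abundance against another's.

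The top of this order was similar from cow to cow. Of the 25 genes, 20 were among the brightest 1% of genes (70 genes) on all 11 arrays. The other 5 were COL1A2, CST3, VIM, CD36 and RPL11, each inside on 10 arrays, and each was lowest in cow 384. Leaving out any 1 array kept 24 of the 25, as did leaving out all 3 arrays high in ACTA1.

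Skeletal muscle genes varied most over all 11 arrays. MYL1, a fast muscle myosin light chain, had the largest SD at 3.31, ranging from 3.09 through a median of 3.95 to 13.25. Cow 384 held the high end and cow 386 came next at 10.47, while cow 382 stood at 6.24. The troponin gene TNNC2 (SD 3.12), the calcium pump regulator SLN (3.06), MYBPC1 (3.05) and the calcium pump ATP2A1 (2.96) followed. Of the 25 genes with the largest SD, 12 were on the skeletal muscle list and 20 were highest in cow 384. In the limma fit on ACTA1, 385 probe sets rose with it (2.67%) and 286 fell (1.98%), and 14 of 16 muscle genes rose. The 671 calls became 20 without cow 384, 2891 without cow 386, and 266 to 373 without cow 331, 338, 347 or 360. ACTA1 also chose the high arrays, and MYH1, TNNC1, TNNI2, ATP2A1 and MYBPC1 were below the filter level on each of the other 8 arrays and passed only through the high ones, so these muscle counts are a description and support nothing further.

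Adipose genes were low in the same array. Taking each list's level on an array as the median over its genes of the level minus the gene's own median, adipocyte markers stood at -1.46 in cow 384, fatty acid synthesis at -1.23, endothelial markers at -1.16 and matrix genes at -0.67. Cow 386, whose muscle list stood at 3.92, had an adipocyte list level of 0.19 and a fatty acid synthesis level of -0.01. Among the 8 arrays below the ACTA1 limit, muscle levels lay between -0.40 and 0.16. In all 11 arrays 3 of the 14 fatty acid synthesis genes fell as ACTA1 rose, among them ELOVL5, a fatty acid elongase, by 0.19 ± 0.03 (SE) log2 units per unit of ACTA1 (adjusted p = 0.0113, limma; 0.89 without cow 384). Without the 3 high arrays 0% of probe sets rose and 0% fell with ACTA1 in limma, with 1051 of 14409 at an unadjusted p under 0.05. The part of muscle RNA in the adipose values of cow 384 was not tested.

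**Figure D2:**
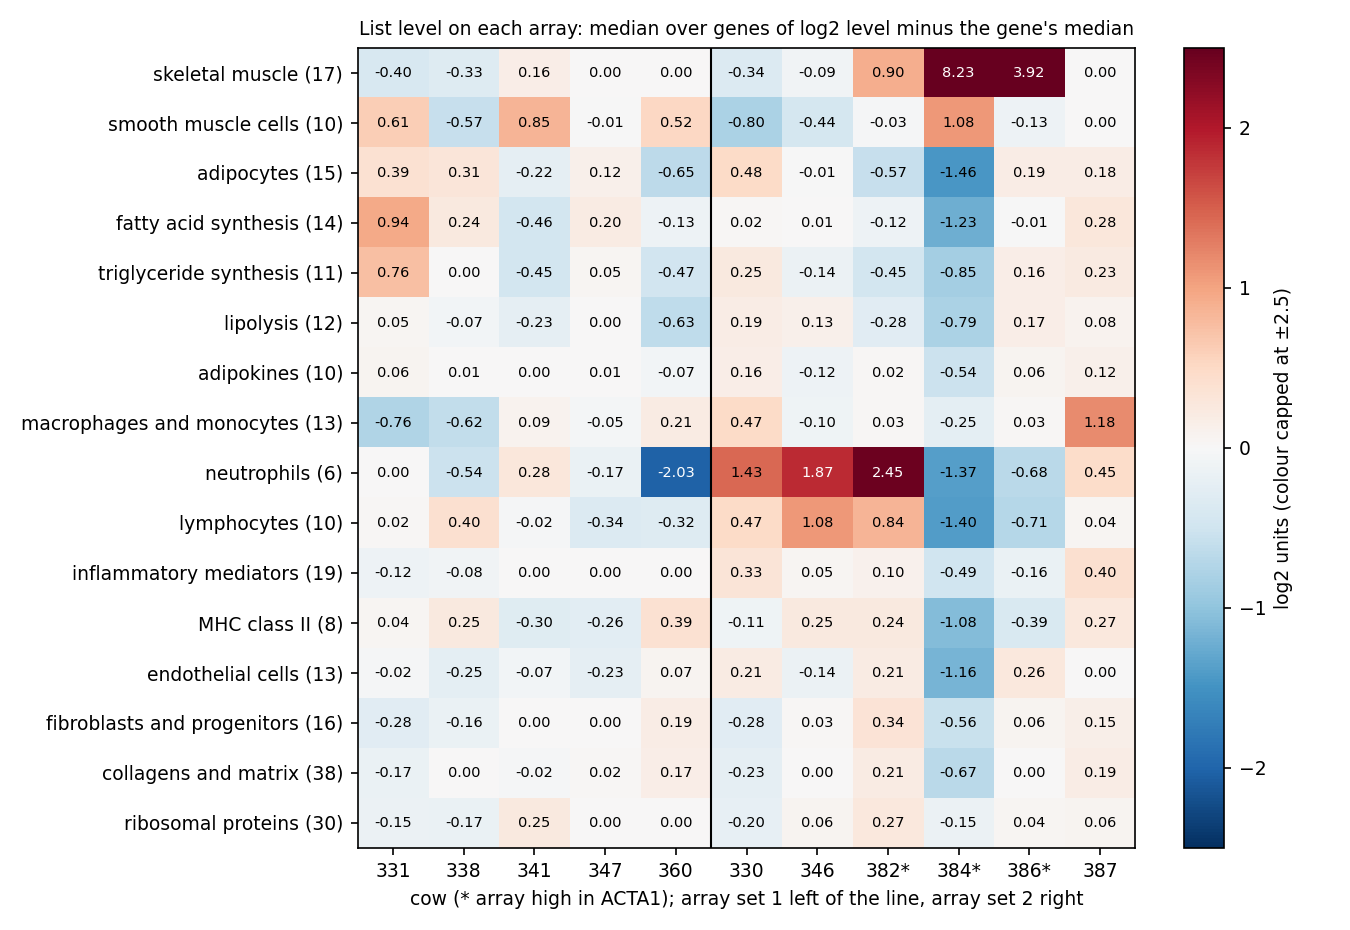
List level on each array, in log2 units, for 16 gene and marker lists with the number of genes in brackets; columns are cows, array set 1 left of the line and array set 2 right, and an asterisk marks the 3 arrays high in ACTA1. Skeletal muscle stood at 8.23 and 3.92 in cows 384 and 386, neutrophil markers were highest in cows 382 and 346 (2.45 and 1.87), and macrophage markers in the array labelled cow 387 (1.18).

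Without the 3 arrays the most variable genes were different ones. Of the 25 genes with the largest SD over the remaining 8 arrays, 4 were also among the 25 for all arrays, and 0 were muscle genes. PRSS2, annotated as a trypsinogen, led at an SD of 2.62 with a range of 3.11 to 8.89. DEFB4A, an antimicrobial defensin, followed (SD 2.42, 3.09 to 9.65), then SPP1, the secreted phosphoprotein osteopontin (2.05, 6.23 to 12.19), the unnamed locus LOC524810 (1.95) and PF4, a platelet chemokine (1.94, 4.59 to 10.48). The neutrophil calgranulins S100A9, S100A12 and S100A8 had SDs of 1.72, 1.62 and 1.58. HP, the acute phase protein haptoglobin, had 1.71, the B cell marker MS4A1 1.59, the beta globin gene HBB 1.51 and the chitinase-like CHI3L1 1.46. ACSS2 (1.34) and LEP (1.32) were the fat genes on this list, and FASN (1.10) and SCD (1.09) lay just below it. The median SD over all 7000 genes was 0.258, and 90% of genes were below 0.513.

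The extremes lay in a few arrays. Of the 25 genes, 11 were highest in cow 346, 7 in the array labelled cow 387, 3 in cow 330 and 2 in cow 331, and 16 were lowest in cow 360. Genes of blood and inflammation followed separate arrays: PF4, MS4A1, S100A8, S100A9 and S100A12 peaked in cow 346, whereas SPP1, DEFB4A, HP and CHI3L1 peaked in the array labelled cow 387. A second probe set for S100A9 correlated with the first at r = 0.94, as a description over 11 arrays, and those for MS4A1 and LEP at 0.97 and 0.87.

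**Figure D3:**
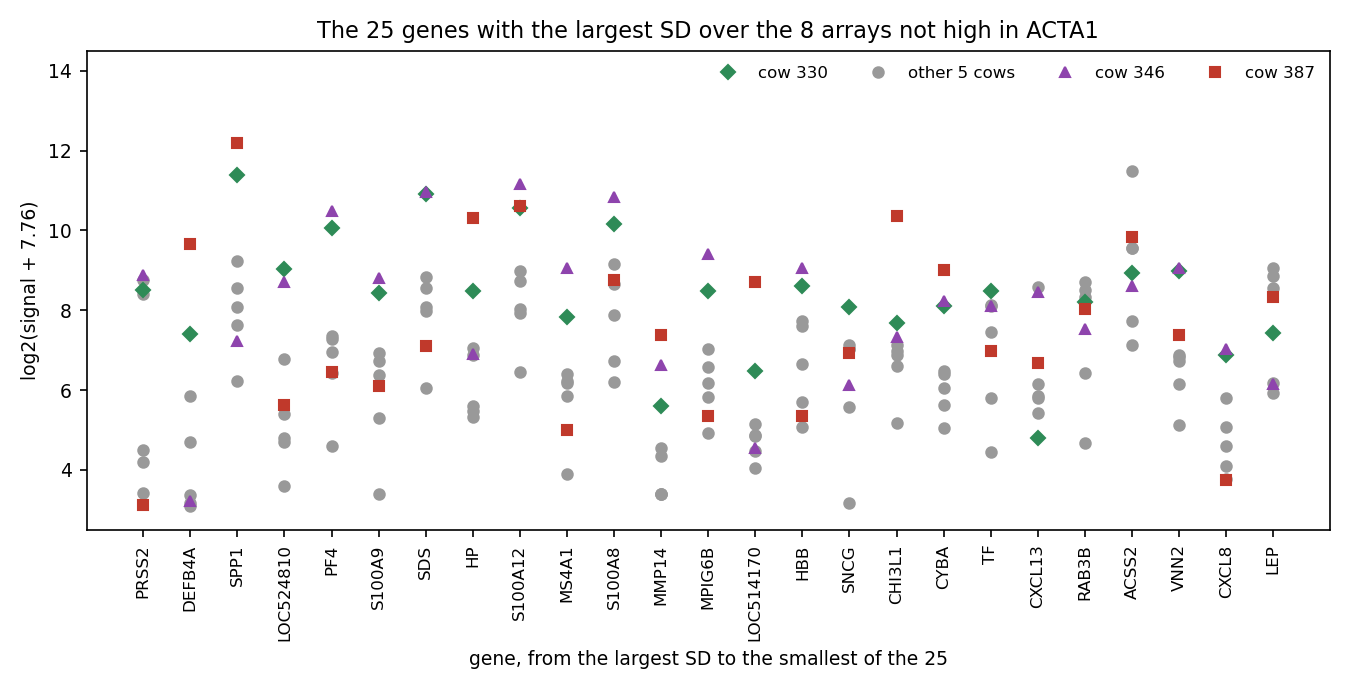
Levels, as log2(signal + 7.76), of the 25 genes with the largest SD over the 8 arrays not high in ACTA1, ordered by that SD; triangles are cow 346, squares the array labelled cow 387, diamonds cow 330 and grey points the other 5 cows. PF4 and S100A9 were highest in cow 346 (10.48 and 8.82), and SPP1 and DEFB4A in the array labelled cow 387 (12.19 and 9.65).

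Genes of fat making varied more than most genes and varied together. The 14 measured fatty acid synthesis genes had a median SD of 0.598 with all arrays and 0.501 without those high in ACTA1, against 0.327 and 0.258 for all genes. Their median pairwise correlation was 0.64 and 0.67, against 0.02 and 0.00 over all genes, as a description over arrays. Triglyceride synthesis genes had a median SD of 0.618 and 0.462 and a pairwise correlation of 0.38 and 0.47. Within the first list the spread was uneven: ACSS2, SCD, FASN and ELOVL6 had SDs of 1.24, 1.17, 1.15 and 1.13, whereas ACLY, which makes acetyl-CoA from citrate, had 0.25 and ELOVL1 0.24.

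FASN itself ranged from 7.36 through a median of 8.87 to 11.54. Cow 331 was the highest, well above the next array, cow 347 at 10.06, and cow 384 was the lowest, below cow 341 at 7.97. Cow 331 was also highest for SCD (12.76), ACSS2 (11.49), ACACA (8.24), ELOVL6 (9.47), GPAM (11.22), DGAT2 (11.65) and LPL (12.34). The fatty acid synthesis list stood at 0.94 in that cow, 0.28 or less in every other, and -0.46 in cow 341.

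To find genes that moved with FASN, each probe set was fitted on its level across arrays with limma; a slope is the change in log2 level per log2 unit of FASN. With all 11 arrays 40 probe sets rose with FASN (0.278%) and none fell (0%). Of the other 13 fatty acid synthesis genes, 6 rose and 12 had positive slopes, with a median slope of 0.38 against 0.02 over all probe sets. ACSS2, which activates acetate, had a slope of 1.0 ± 0.12 (SE, adjusted p = 0.00437), ACACA, the carboxylase ahead of FASN, 0.61 ± 0.09 (0.0124), ELOVL6 0.88 ± 0.13 (0.0173) and SCD 0.86 ± 0.16 (0.0372). IDH1, a source of reducing power, rose too (0.43 ± 0.08, 0.0448). Of 11 triglyceride synthesis genes, 2 rose: GPAM, the first acyltransferase, at 0.88 ± 0.11 (0.00466), and DGAT2, the last, at 0.88 ± 0.16 (0.0348). LPL, which frees fatty acids from circulating lipoproteins, rose by 0.74 ± 0.10 (0.0065).

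Genes outside the lists that rose most closely with FASN were ECHDC1, a proofreading enzyme of fatty acid synthesis (0.66 ± 0.07, adjusted p = 7.45e-04), and MGST1, a membrane glutathione transferase (0.82 ± 0.08, 7.45e-04). ECHDC1 ranged from 7.64 through 8.81 to 10.50 and MGST1 from 8.37 through 10.17 to 12.18, and both were highest in cow 331 and lowest in cow 384. SLC16A1, a lactate carrier (0.44), and BSG, its chaperone (0.48), also rose.

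Without the arrays high in ACTA1, 4 probe sets rose with FASN (0.0278%) and 3 fell (0.0208%). ECHDC1 (slope 0.65, adjusted p = 0.0193), MGST1 (0.78, 0.0193) and ACSS2 (1.16 ± 0.13, 0.0105) kept their calls, and 12 of the 13 synthesis genes again had positive slopes, with a median of 0.35 against -0.01. GPAM had 0.88 (0.0535), LPL 0.76 (0.0629), ACACA 0.65 (0.0932) and SCD 0.76 (0.315). PDK4, which restrains pyruvate use in mitochondria, fell as FASN rose: its slope was -0.58 ± 0.07 (0.0193) in the 8 arrays and -0.37 (0.191) in all 11. PDK4 ranged from 9.84 in cow 331 to 12.08 in cow 341. The count of 40 became 7 without cow 331 and 14 without cow 384, the arrays at the ends of the FASN range. Leaving out cow 338, 346, 347, 360, 382 or 387 gave 20 to 25 calls, and leaving out cow 330 gave 67.

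Among other lists, 3 of 15 adipocyte markers, 1 of 10 adipokines and 1 of 19 inflammatory mediators rose with FASN. The adipocyte markers include DGAT2 and LPL, already named above, and LEP is on both the adipocyte and the adipokine list. Without the arrays high in ACTA1, 0 genes rose on each of these lists, where 0.0278% of all probe sets rose. With all arrays, 0 of 12 lipolysis genes, 38 matrix genes and 13 macrophage markers passed in limma. There 1763 of 14409 probe sets had an unadjusted p under 0.05. With 0.278% of all probe sets called, this count is no result about those genes. LIPE had a slope of 0.32 (adjusted p = 0.427) and ADIPOQ 0.30 (0.38). Macrophage markers had negative slopes in 11 of 13 genes with all arrays and in 13 of 13 without those high in ACTA1. Their medians were -0.11 and -0.22, against 0.02 and -0.01 over all probe sets. Positive slopes numbered 7939 and 6814 of 14409 over all probe sets. These markers correlated with one another, so their signs do not count as separate results. FASN and CD68 had r = -0.09 without the arrays high in ACTA1 (adjusted exact permutation p = 0.903).

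**Figure D4:**
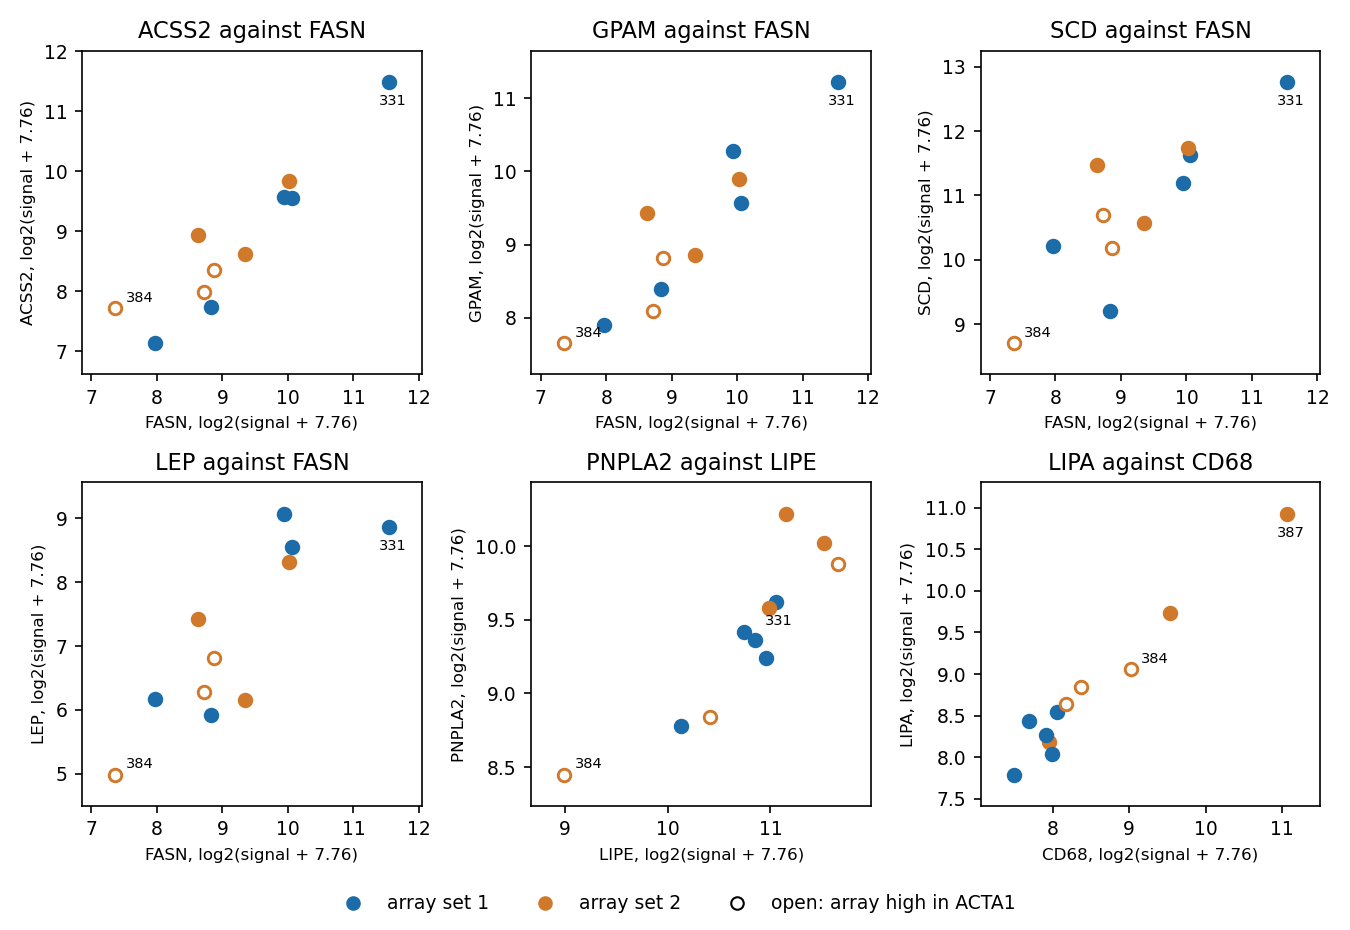
Levels of 6 gene pairs across the 11 postpartum arrays, both axes as log2(signal + 7.76); blue and orange points are array sets 1 and 2, open points the arrays high in ACTA1, and a few cows are numbered. Cow 331 had the highest FASN (11.54) and cow 384 the lowest (7.36), cow 384 was also lowest for LIPE and PNPLA2, and the array labelled cow 387 was highest for CD68 and LIPA.

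LEP varied widely, and several genes of fat synthesis rose with it. LEP ranged from 4.99 through 6.81 to 9.07, an SD of 1.38, with cows 338, 331, 347 and 387 above 8 and cows 360 and 384 below 6. In the limma fit on LEP 59 probe sets rose (0.409%) and 0% fell. LPL had a slope of 0.64 ± 0.07 per log2 unit of LEP (adjusted p = 0.00363), ELOVL6 0.76 ± 0.09 (0.00597), GPAM 0.73 ± 0.09 (0.00644) and the ceramidase gene ACER3 0.49 ± 0.06 (0.00363). Of 14 fatty acid synthesis genes 6 rose, FASN among them (0.71 ± 0.13, 0.0344), and 3 of 11 triglyceride synthesis genes rose, including PCK1, which supplies the glycerol backbone (0.76 ± 0.12, 0.026). None of 12 lipolysis genes passed, LIPE having a slope of 0.32 (0.288).

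Single genes were also compared in pairs. Over 36 pairs of 9 genes, tested by permutation with Benjamini-Hochberg adjustment, SCD and LEP correlated at r = 0.88 (permutation p = 0.00038, adjusted p = 0.00684; rho = 0.84, adjusted p = 0.0419). FASN and LEP had r = 0.85 (adjusted p = 0.00996 by permutation; rho = 0.74, 0.098) and FASN and SCD r = 0.84 (0.0133; rho = 0.74, 0.098). Without cows 331 and 384, the arrays farthest from the median, these became 0.79, 0.79 and 0.60. For FASN and SCD the exact permutation p was then 0.0898, so that pair was weaker and not clear without those arrays. Within array set 2 (6 arrays) r was 0.92, 0.80 and 0.82. No value was computed within array set 1, which held 5 arrays. LIPE and LEP had r = 0.60 (adjusted permutation p = 0.155) and FASN and LIPE 0.50 (0.301). The difference between these correlations was not tested.

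Without the arrays high in ACTA1, 0% of probe sets rose and 0% fell with LEP in limma, and 1060 of 14408 had an unadjusted p under 0.05. Every named call was lost, with slopes of 0.65 for LPL (adjusted p = 0.0812), 0.46 for ACER3 (0.0812), 0.72 for GPAM (0.151), 0.73 for ELOVL6 (0.156), 0.67 for PCK1 (0.159) and 0.64 for FASN (0.357), and 12 of 14 fatty acid synthesis genes had positive slopes. The correlations were 0.83 for SCD and LEP, 0.77 for FASN and LEP and 0.77 for FASN and SCD, with adjusted exact permutation p of 0.158 to 0.17 in 8 arrays. Of the single arrays, cow 331 (5 calls) and cow 384 (7 calls) mattered most to the 59 calls; leaving out cow 330, 338, 347, 382 or 386 gave 14 to 38.

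The main lipases varied less than FASN or LEP and followed each other. LIPE, the hormone-sensitive lipase, ranged from 8.99 through 10.96 to 11.66 and PNPLA2, the adipose triglyceride lipase, from 8.45 through 9.42 to 10.22. Cow 384 was lowest for both and cow 360 next lowest, and cows 330, 386 and 387 held the upper end. The pair correlated at r = 0.89 (adjusted permutation p = 0.00396; rho = 0.93, 0.0072), at 0.82 without cows 360 and 384 (exact permutation p = 0.00834), at 0.90 within array set 2, and at 0.87 without the arrays high in ACTA1 (adjusted exact permutation p = 0.158). The 12 lipolysis genes had a median SD of 0.588 and 0.434 with and without those arrays. Their median pairwise correlation was 0.00 and 0.34. CIDEA, a lipid droplet protein, had the largest SD (1.10), and the kinase subunits PRKAR1A and PRKACB the smallest, 0.17 each.

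In all 11 arrays 469 probe sets rose with LIPE (3.26%) and 320 fell (2.22%). Of 11 other lipolysis genes 5 rose: PNPLA2 (0.66 ± 0.11, adjusted p = 0.0117), CIDEC (0.83 ± 0.08, 5.61e-04), the glycerol channel AQP7 (0.75, 0.0174), the PNPLA2 inhibitor G0S2 (0.56, 0.0304) and CIDEA (1.16, 0.0312). Of 14 other adipocyte markers, a list that shares 6 genes with lipolysis, 9 rose, with TRARG1, a regulator of glucose transporter traffic, at 0.90 ± 0.07 (8.72e-05), ADIPOQ at 0.75 (0.0124) and the adipogenic factor PPARG at 0.75 (0.0308). TPM2 and LMOD1 of the smooth muscle list and TCAP of the skeletal muscle list fell as LIPE rose. TPM2 and TCAP were highest in cow 384, at 12.85 and 12.1, the cow with the lowest LIPE.

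These calls turned on cow 384. Without it 1 probe set passed, for TRARG1 (adjusted p = 0.0121), and without the arrays high in ACTA1 0% rose and 0% fell in limma, with 1567 of 14407 at an unadjusted p under 0.05. Slopes in the 8 arrays were nevertheless positive for 10 of 11 lipolysis genes (median 0.66 against 0.00 over all probe sets), 14 of 14 adipocyte markers (median 0.82) and 10 of 11 triglyceride synthesis genes (median 0.90). PNPLA2 had 0.99 ± 0.22 (0.218) and TRARG1 1.07 ± 0.16 (0.143). Leaving out cow 330, 338, 346, 347 or 387 gave 397 to 477 calls, and leaving out cow 360 or 386 gave 1661 or 1278.

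The list of adipokines showed no common movement. Its 10 genes had a median pairwise correlation of 0.12 with all arrays and -0.10 without those high in ACTA1. LEP (SD 1.38) and RBP4, a retinol carrier (1.20), varied most, while RARRES2, which encodes chemerin, and LPAR1 had SDs of 0.26 and 0.23. RBP4 rose with LIPE (1.18 ± 0.31, adjusted p = 0.045), and without the arrays high in ACTA1 had 2.71 ± 0.43 (0.181).

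Macrophage markers correlated with one another and were highest in 1 array. CD68, a lysosomal protein of macrophages, ranged from 7.49 through 8.06 to 11.07, with the array labelled cow 387 far above cow 330 at 9.54. The 13 macrophage and monocyte markers that passed the filter had a median pairwise correlation of 0.73, and 0.85 without the arrays high in ACTA1. Both values include the array labelled cow 387, and neither was computed without it. The list level of these markers was 1.18 in the array labelled cow 387, 0.47 in cow 330, -0.62 in cow 338 and -0.76 in cow 331. Summed signal over 14 markers ran from 3664 in cow 331 to 15767 in that array.

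In the fit on CD68 17 probe sets rose (0.118%) and 1 fell (0.00694%) with all arrays, and 32 rose (0.222%) and 3 fell (0.0208%) without those high in ACTA1. With array set as a covariate 5 passed, LIPA, VSIG4 and MMP19 among them; the arrays with the highest CD68, labelled cows 387 and 330, are both in array set 2. LIPA, the lysosomal acid lipase, had a slope of 0.84 ± 0.07 (adjusted p = 1.56e-04), VSIG4, a complement receptor of resident macrophages, 0.95 ± 0.08 (2.22e-04), and MMP19, a matrix metalloproteinase, 0.76 ± 0.08 (7.15e-04). SPP1 (1.62 ± 0.23, 0.0171), HP (1.41 ± 0.23, 0.0356) and CD14, the lipopolysaccharide co-receptor (0.65 ± 0.10, 0.0356), rose as well. Of 12 other macrophage markers CD14 alone passed, yet 12 of 12 had positive slopes, with a median of 0.43 and, without arrays high in ACTA1, 0.48. Over all probe sets 6885 and 7108 of 14409 slopes were positive. The marker slopes include the array labelled cow 387, and their median was not computed without it. ITGB2, a leukocyte integrin, had 0.71 (0.0884) with all arrays and rose by 0.74 ± 0.11 (0.0264) in the 8.

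Without the array labelled cow 387 SPP1 was the 1 probe set that passed (adjusted p = 0.0119), and LIPA, VSIG4, MMP19 and CD14 had adjusted p of 0.0855, 0.214, 0.299 and 0.545. The slope of LIPA was 0.85 ± 0.13 without it. Leaving out cow 384 gave 43 calls, and leaving out cow 330, 331, 338, 347 or 386 gave 7 to 11. The 14 fatty acid synthesis genes and 38 matrix genes had median slopes on CD68 of -0.06 and -0.04, against -0.01 over all probe sets. CD68 and LEP had r = -0.01 and CD68 and FASN -0.15 (adjusted permutation p = 0.979 and 0.801), with rho of -0.39 and -0.54. Without the array labelled cow 387 r was -0.45 and -0.62.

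The neutrophil and lymphocyte list levels and the platelet gene PF4 were highest in cow 346 or cow 382. Cow 330 was also high for them, and its macrophage list level of 0.47 came next after the array labelled cow 387. S100A9 ranged from 3.39 through 6.39 to 10.13, with cows 382, 346 and 330 at 10.13, 8.82 and 8.43 and cow 360 at the bottom. The summed signal of 9 neutrophil markers was 7768 in cow 382 and 5254 in cow 346, against 424 in cow 360. Cows 346 and 382 also had the highest actin 3'/5' log2 ratios, a measure of RNA integrity, at 4.16 and 3.67, and cow 384 had the lowest at -0.07. By the GAPDH 3'/5' log2 ratio cows 346 and 382 stood at 0.28 and 0.451. Cow 341 had the highest GAPDH ratio at 1.264, with an actin ratio of 3.393. The part of RNA quality in these levels, or in the low FASN level of cow 341, was not tested. S100A8 and S100A12 were also highest in cow 382 (11.48 and 11.57). The 6 neutrophil markers above the filter had the largest median SD of any list besides skeletal muscle and the single erythrocyte gene, 1.48, and 1.32 without arrays high in ACTA1. MPO, CATHL1 and LTF, the granule markers of that list, were below the filter. S100A9 and CD68 had r = 0.04 (adjusted permutation p = 0.961).

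HBB, which marks red blood cells, was high in the same cows: 9.05 in cow 346, 8.79 in cow 382 and 8.62 in cow 330, against a median of 6.89 and a low of 5.07 in cow 360. A fit on HBB, added after the data had been seen, found 32 probe sets that rose (0.222%) and 0% that fell. PF4 (1.11 ± 0.13, adjusted p = 0.00459) and MPIG6B (0.97 ± 0.12, 0.00459) of platelets, MS4A1 of B cells (1.05 ± 0.14, 0.00841), CD3D (0.51 ± 0.07, 0.0112) and ZAP70 (0.52 ± 0.07, 0.00943) of T cells and the neutrophil receptor CXCR1 (0.73 ± 0.12, 0.0317) were among them. S100A9 had a slope of 1.08 (0.0585). HBB stood alone for its list, since HBA, HBM, ALAS2, AHSP and SLC4A1 were below the filter.

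Without arrays high in ACTA1 7 probe sets rose with HBB (0.0486%) and 1 fell (0.00694%). PF4 (1.18 ± 0.16, adjusted p = 0.0395) and MS4A1 (0.97 ± 0.13, 0.0409) kept their calls, PRSS2 rose with 1.61 ± 0.20 (0.0297), and BOLA-DQB1, an MHC class II gene, fell by 0.50 (0.0464). PRSS2 lay at 8.41 to 8.89 in cows 330, 331, 338 and 346 and below the filter level in the rest of the 8. In the arrays left out, HBB and PRSS2 were 8.79 and 4.34 in cow 382, 5.27 and 7.33 in cow 384, and 6.89 and 4.68 in cow 386. Leaving out cow 346 or cow 382 left 3 calls each, leaving out cow 330, 347 or 360 left 6 to 21, and leaving out the array labelled cow 387 gave 49. By list, 1 of 6 neutrophil and 2 of 10 lymphocyte markers rose with HBB, and 0 of 13 macrophage and monocyte markers, of which 3 had positive slopes (median -0.07). The part of blood in these values was not tested.

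COL1A1, the main fibrillar collagen gene, was low in 2 arrays and level in the others. It ranged from 10.87 through 12.51 to 12.72: cow 384 and cow 330 (11.60) lay low and the other 9 arrays between 12.15 and 12.72. Of 38 matrix genes, TNC, POSTN and ELN had the largest SDs (1.07, 0.96 and 0.79), and FBN1, the microfibril protein fibrillin, 0.21 and PLOD1, a collagen lysyl hydroxylase, 0.15. The list's median pairwise correlation was 0.31, and 0.17 without arrays high in ACTA1.

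With all arrays 1590 probe sets rose with COL1A1 (11%) and 1252 fell (8.69%), the largest count of any reference gene. Of 37 other matrix genes 15 rose, among them COL6A1 (0.90 ± 0.12, adjusted p = 0.00223), COL1A2 (0.54 ± 0.10, 0.00695), COL3A1 (0.47 ± 0.10, 0.00862), DCN (0.44 ± 0.09, 0.0109) and SPARC, a collagen-binding protein (0.52 ± 0.11, 0.00996). IGFBP3, an insulin-like growth factor carrier made by fibroblasts, had a slope of 1.26 ± 0.13 (6.07e-04). Mitochondrial genes SLC25A11, VDAC1 and PINK1 fell, as did 10 of 17 skeletal muscle genes and 6 of 18 fatty acid oxidation genes. Cow 384 had both the lowest COL1A1 and the highest muscle level. MYH1, TNNC1, TNNI2, ATP2A1 and MYBPC1 passed the filter only through the arrays high in ACTA1. This muscle count is therefore a description and supports nothing further.

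Without cow 384 the 2842 calls became 2, and without the arrays high in ACTA1 0% of probe sets rose and 0% fell in limma, with 829 of 14408 at an unadjusted p under 0.05. Slopes were positive for 29 of 37 matrix genes in those 8 arrays, with a median of 0.23 against 0.00 over all probe sets. COL1A2 had 0.67 ± 0.18 (adjusted p = 0.665) and COL3A1 0.61 ± 0.19 (0.776). Adipocyte markers changed side: their median slope on COL1A1 was 0.45 with all arrays and -0.65 in the 8, where 2 of 15 were positive. LIPE and COL1A1 had r = 0.46 with all arrays and -0.66 without those high in ACTA1 (adjusted permutation p = 0.347 and 0.411). Among the 8 arrays cow 330 stood apart in COL1A1, at 11.60 against 12.15 to 12.68 in the others. It also had the highest adipocyte list level (0.48) and LIPE (11.52) of the 8. How far the slopes in the 8 arrays rested on cow 330 was not tested.

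**Figure D5:**
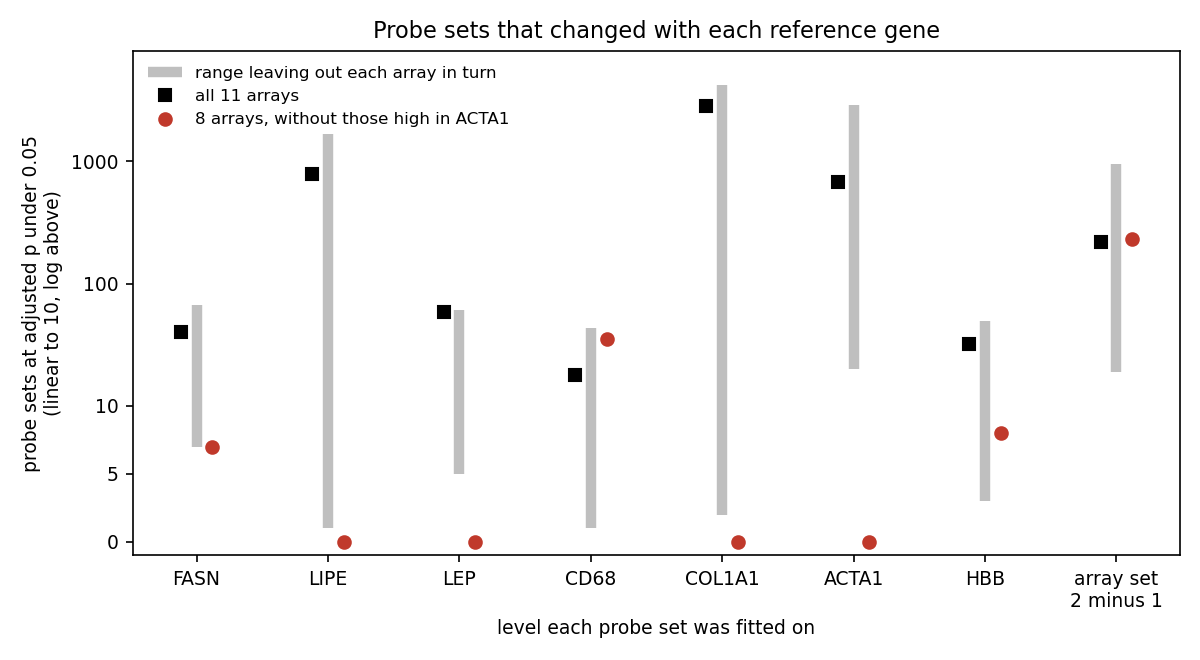
Number of probe sets at an adjusted p under 0.05 for the fit on each reference gene and for the difference between array sets; black squares use all 11 arrays, red points the 8 arrays not high in ACTA1, and grey bars span the counts when each array is left out in turn (axis linear to 10 and logarithmic above). Counts for LIPE, LEP, COL1A1 and ACTA1 were 0 without the arrays high in ACTA1, that for CD68 went from 18 to 35 and that for the array sets from 219 to 233.

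Part of the variation followed the array sets. The second principal component over all genes, with 15.3% of the variance, placed array set 1 at -18.3 to -11.1 and array set 2 at -1.1 to 22.8. The first, with 44.4%, set cow 384 at 75.2 against -11.4 to 5.0 for the others. In the limma comparison of array set 2 with array set 1, 127 probe sets were higher (0.881%) and 92 lower (0.638%), and without arrays high in ACTA1 171 were higher (1.19%) and 62 lower (0.43%). CYBA, a subunit of the phagocyte oxidase, was 8.26 ± 0.54 (SD, n = 6) against 5.92 ± 0.59 (n = 5), a difference of 2.33 ± 0.30 (SE, adjusted p = 0.00666) and the sets did not overlap. MMP14, a membrane-bound collagenase, passed the intensity filter only through array set 2: it was 3.39 to 4.56 in array set 1, below the filter on each array, and 5.56 to 7.38 in array set 2. PRKACA, a catalytic subunit of the kinase that activates LIPE, was 7.75 ± 0.34 against 6.66 ± 0.18 (1.09 ± 0.17, 0.0168), the only lipolysis gene that differed, and GSK3B was 0.71 higher (0.0233). NEURL1 (-0.90 ± 0.13, 0.0105) and MRPL2 (-0.72, 0.0244) were lower.

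Among immune genes, some were higher in array set 2, and lists differed in the share of members that were higher. The Fc receptor chain FCER1G was 7.89 ± 0.64 against 6.46 ± 0.37 (difference 1.43 ± 0.29, adjusted p = 0.0355), and the chemokine CCL3 1.10 higher (0.0234). All 6 neutrophil markers and 12 of 13 macrophage markers had positive differences with all arrays, with medians of 1.22 and 0.57 against 0.00, and 0 and 1 of them passed. Positive differences were a smaller share for lymphocyte markers (7 of 10, median 0.18) and inflammatory mediators (10 of 19, 0.22). The same held for interferon response genes (5 of 8, 0.34) and MHC class II genes (4 of 8, -0.06). Without arrays high in ACTA1 the MHC class II median was 0.16, with 6 of 8 positive. Within array set 2 the neutrophil list was low in cows 384 and 386 (-1.37 and -0.68). Without arrays high in ACTA1, 2 neutrophil and 3 macrophage markers passed, including TYROBP (1.76 ± 0.33, 0.0309) and S100A12 (2.75 ± 0.46, 0.0197). The fat and matrix reference genes did not pass: FASN differed by -0.84 ± 0.57 (0.459), LEP by -1.05 ± 0.69 (0.438), LIPE by 0.04 and COL1A1 by -0.36 ± 0.29 (0.541). Cows and array sets cannot be told apart, because each cow had 1 postpartum array. Leaving out any array other than cow 330 moved this count by more than 1.5 times, to 19 to 98 calls, except that leaving out cow 384 gave 952.

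Ribosomal protein genes varied little. The 30 measured had a median SD of 0.190, and 0.183 without arrays high in ACTA1, with a pairwise correlation of 0.70 and 0.71. Smooth muscle markers also moved together (0.76 and 0.86), with list levels of 1.08 in cow 384, 0.85 in cow 341 and -0.80 in cow 330. That list shares DES with the skeletal muscle list. DES and TPM2 were highest in cow 384 (13.14 and 12.85), whereas MYH11 and CNN1 were highest in cow 341 (11.98 and 9.72). Of 24 lists with at least 3 measured genes, 22 had a median SD above that of all genes with all arrays, and 22 without those high in ACTA1.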

How the data were processed

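Adipose RNA of 11 cows, 14 days after calving, was measured on 1 Affymetrix array each. The deposited intensity values are linear signals that MAS5 produced, per the submitters' processing notes. Version, settings and scaling target of MAS5 were not stated there. Of 24128 probe sets, 112 controls were left out, and 13292 of the other 24016 had 1 gene symbol, 86 several and 10638 none. Symbols were updated through gene IDs (13263) or accessions (2) of a RefSeq table (assembly ARS-UCD2.0), and 27 were kept as annotated.

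A pseudocount of 7.76 (each array's 20th percentile, taken at the median array) was added before log2. Probe sets with a mean at or above the 40th percentile were kept (14410), and a gene was read by its kept probe set of highest mean. Each probe set was fitted with limma 3.58.1 in R 4.3.3 (trended empirical Bayes) on the level of a reference gene, whose own probe sets were left out, or on array set. P-values were adjusted by Benjamini-Hochberg over 14407 to 14410 probe sets, with a threshold of 0.05. Pairs of genes were tested with two-sided permutation tests (100000 resamples, or exact for few arrays; scipy 1.17.1, numpy 2.4.6, Python 3.11.15), and figures used matplotlib 3.10.9. The fits were tested on simulated data.

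The reference genes were FASN, LIPE, LEP, CD68, COL1A1 and ACTA1, with HBB added after the data were seen. The 15 gene lists and 12 marker lists, like the choice of this group, were made with earlier results of these data known. Genes named were taken from the called genes with the largest correlation in each direction, or for array set the largest difference. Listed genes that passed, the reference genes, and the 25 brightest and 25 most variable genes were the other sources. Alternatives changed the pseudocount, the filter, normalization, threshold, covariates and arrays included. The number of arrays limits the precision, and p-values describe the spread between these cows.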

Additional observations from a re-analysis of the deposited data

Results flagged for a closer look

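COL1A1 was 12.15 in cow 331, the lowest of the 5 arrays of array set 1 and far below the narrow range of the other 4 for a group of that size. This was the 1 value that stood apart among 18 groups of arrays examined, and chance alone marks about 1 group in 20. Cow 330, in array set 2, was lower still at 11.60.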

How the results depend on the processing

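No paired analysis was possible because each cow had 1 postpartum array. Halving or doubling the pseudocount and robust empirical Bayes kept the counts of all 8 fits within 1.5 times. Without the arrays high in ACTA1 the calls were 7 (FASN), 0 (LIPE), 0 (LEP), 35 (CD68), 0 (COL1A1), 0 (ACTA1) and 8 (HBB), 0 gene pairs passed and 4 of the 25 most variable genes were shared; limma gave 1567, 1060, 829 and 1051 probe sets at an unadjusted p under 0.05 for LIPE, LEP, COL1A1 and ACTA1. Without cows 384 and 386, chosen after seeing the data, the calls were 12, 0, 8, 36, 2 and 0, with 761 for array set and 0 pairs. With ACTA1 as a covariate they were 3 (FASN), 9 (LIPE), 0 (LEP; 679 unadjusted in limma) and 199 (COL1A1). With array set as a covariate they were 16 (FASN), 1757 (LIPE), 16 (LEP), 5 (CD68), 267 (ACTA1) and 18 (HBB). At an adjusted p under 0.10 they were 91 (FASN), 1876 (LIPE), 126 (LEP), 2122 (ACTA1) and 566 (array set). Without a filter LEP had 32 calls and genes with 2 levels numbered 1, or 2 with double the pseudocount. The 60th percentile filter gave 15 for HBB and 5 shared variable genes, quantile normalization 428 for ACTA1, and Spearman's rho 2 pairs. The slopes of TNNC1 and TNNC2 on ACTA1 turned to -0.09 and -0.22 without the high arrays. Leaving out each array in turn gave 7 to 67 (FASN), 1 to 1661 (LIPE), 5 to 61 (LEP), 1 to 43 (CD68), 2 to 4178 (COL1A1), 20 to 2891 (ACTA1), 3 to 49 (HBB), 19 to 952 (array set), 0 to 7 pairs, 16 to 25 variable genes and 24 brightest genes. The cause of these shifts was not tested.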

Other observations

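Lists outside the fat, immune and matrix comparisons also varied between arrays. The 8 MHC class II genes, which present antigen on immune cells, had a median pairwise correlation of 0.58 with all arrays and 0.43 without those high in ACTA1. Their list level was -1.08 in cow 384, -0.39 in cow 386 and 0.39 in cow 360. Interferon response genes stood highest in cow 382 (0.59) and cow 346 (0.52), the cows with the highest neutrophil levels, and lowest in cow 384 (-0.45). Immediate early genes, which respond within minutes to stimuli, were highest in cow 346 (0.49) and the array labelled cow 387 (0.44). Lipogenic regulators had list levels between -0.28 in cow 384 and 0.27 in cow 386. No difference between these levels was tested.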
